A study of Drosophila melanogaster with 46 samples.

Results

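Synaptic vesicle and active zone genes encode the machinery with which a nerve terminal stores, releases and recycles transmitter. The set described here held 32 Drosophila genes, chosen by name as known components of that machinery. The choice was made with earlier results of these data known. Of the 32 genes, 31 had a row in the deposited table of 17490 genes. They were divided by role into active zone scaffold and priming factors, SNAREs and fusion machinery, synaptotagmins, vesicle proteins with their transporters and transport motor, endocytosis and recycling factors, adhesion and postsynaptic scaffold proteins, and regulators of synapse growth. VAChT, the vesicular acetylcholine transporter, had no row under its symbol or its gene identifier and was not analysed here.

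Transmitter is loaded into vesicles by transporters such as VGlut, and filled vesicles dock at the active zone, a protein scaffold built in flies around brp, Rim, unc-13 and Liprin-alpha that holds vesicles close to calcium channels. Calcium entry is read by synaptotagmins, which trigger membrane fusion by the SNARE proteins, and the vesicle membrane is then retrieved by dynamin (shi), endophilin (endoA) and synaptojanin (synj). Several of these fly genes were first known from mutants with paralysis or with abnormal larval neuromuscular junctions, the motor synapses on body wall muscle. The tissue sequenced here, the dissected central nervous system, holds the neurons that make these proteins, together with dividing neuroblasts and glia.

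The values came from polyA RNA-seq of the central nervous system of larvae of the third instar, with 4 Tet CD and 4 wt libraries. Tet CD larvae carried a catalytic-dead allele of Tet, the single fly gene of the ten-eleven translocation enzyme family, with a double point mutation in the iron-binding motif. The strain list of the study gives this allele as Tet CD-GFP, a knock-in with a GFP tag. Control larvae, called wt, were w1118, without the tag, so effects of the tag and of the point mutation cannot be told apart here. The mutation was present in every cell, each library pooled dissected larval brains, and nothing in the labels said whether the libraries of a group came from separate crosses, so that p-values measure the spread between these libraries. Levels are RPKM, reads scaled to exon length and library size, so that genes and libraries can be set side by side. The scaling leaves in place shifts between libraries that follow exon length, given below.

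Library sizes, recovered from the spacing of low values, were 17.9 to 19.3 M reads in Tet CD and 17.5 to 32.6 M reads in wt. Libraries Tet CD 2 and Tet CD 3 stood apart before any member was considered: the median log2 ratio to the wt mean of the longest genes, those with at least 4147 bases of annotated exon, was -0.32 in Tet CD 2 and -0.12 in Tet CD 3, against 0.01 in Tet CD 1 and 0.03 in Tet CD 4. The Tet transcript itself, which is still made from this allele and is therefore no check of the labels, had 81.0, 28.3, 39.2 and 72.4 RPKM in Tet CD 1 to 4, against 76.4, 81.8, 88.8 and 83.4 RPKM in wt 1 to 4. Its exons span 13823 bases, which places Tet among the longest genes. The log2 fold change of Tet was -0.70, with an adjusted p of 0.153 by limma. Neuron markers (elav, fne, Appl, nrv3 and Rbp9) summed to between 238 and 482 RPKM in Tet CD and between 560 and 622 RPKM in wt, and all 5 were lower on average in Tet CD. Neuroblast marker sums did not separate the groups, at 144 to 159 RPKM in Tet CD and 135 to 163 RPKM in wt. By log2 fold change dpn was at 0.33, while the 4 other neuroblast markers lay between -0.04 and -0.01. Exons span 4770 to 10715 bases in the neuron markers and 2036 to 3887 bases in the neuroblast markers. Once the trend of all genes over exon length was taken out, the neuron marker median log2 fold change was -0.615, against -0.73 before. How much of this contrast follows exon length was not tested. Markers of tissue outside the nervous system also moved, with tracheal markers at 113 to 193 RPKM in Tet CD against 45.5 to 101 RPKM in wt and eye disc markers at 45.7 to 67.0 RPKM in Tet CD against 23.3 to 43.0 RPKM in wt. Fat body markers summed to 51.1 RPKM in Tet CD 2 and to 1.41 to 2.16 RPKM in the other Tet CD libraries, against 0.920 to 22.5 RPKM in wt, with Lsp2 under 0.5 RPKM throughout. Hemocyte markers summed to 17.2 to 26.0 RPKM in Tet CD and 12.6 to 24.1 RPKM in wt. Among them Hml (log2 fold change 1.25) and He (1.37) were higher with overlapping groups, and Pxn was at -0.13. NimC1, too low to be tested, averaged 0.792 RPKM in Tet CD and 0.0916 RPKM in wt. Glial markers summed to 236 to 272 RPKM in Tet CD and 227 to 245 RPKM in wt. The Tet CD values of nrv2 and moody lay above all their wt values. The groups overlapped for Gat (log2 fold change 0.15), repo (-0.08) and alrm (-0.01). Body wall muscle markers summed to 11.3 to 16.98 RPKM in Tet CD and 8.37 to 13.6 RPKM in wt. The part of these shifts in the results that follow was not tested, and in bulk tissue fewer neurons and less RNA per neuron cannot be told apart.

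Of the 31 members in the table, 29 passed the expression filter, set at 0.5 RPKM on average across the 8 libraries, and they were well expressed: Syt4 had the highest level, 144 ± 15.1 RPKM in Tet CD and 175 ± 6.24 RPKM in wt (SD, n = 4 each), and Rim the lowest, 8.90 ± 5.35 RPKM in Tet CD and 16.6 ± 1.98 RPKM in wt (SD, n = 4 each). Rim was also the only tested member whose mean level lay below the median of all 9357 genes tested. Nlg1, a neuroligin, was close to silent, at 0.189 ± 0.0544 RPKM in Tet CD and 0.217 ± 0.0172 RPKM in wt (SD, n = 4 each), which corresponds to 18 to 44 reads per library, and was not tested. stnB, an endocytic adaptor, was listed at 0 in all 8 libraries. Its annotated exons share 8332 bases with those of stnA, the other reading frame of the same transcript, and stnA was listed at 0 as well, so these zeros were not read as absence of the transcript.

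No synaptic vesicle or active zone gene passed the threshold used here in either direction. With limma on log2(RPKM + 0.5), a Benjamini-Hochberg adjusted p under 0.01 and a fold change over 1.2, the counts were 0 of 29 lower and 0 of 29 higher in Tet CD, beside 126 lower genes (1.35%) and 109 higher genes (1.16%) of 9357 tested. The study applied the same cutoffs to another test, DESeq2 on read counts, and reported more genes in both directions. The counts here are therefore not those of the study. At an unadjusted p under 0.05 in the same limma fit, 13 members were lower and 0 were higher, beside 13.9% of all genes lower and 14.4% higher. The direction was uneven even so, with 24 of 29 members (82.8%) lower on average in Tet CD, against 51.4% of all genes tested. The median log2 fold change was -0.22 for the members, against -0.01 over all genes tested. The 5 members with a positive value were Snap25, comt, synj, spin and wnd, none of them above 0.09 on the log2 scale.

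**Figure D1:**
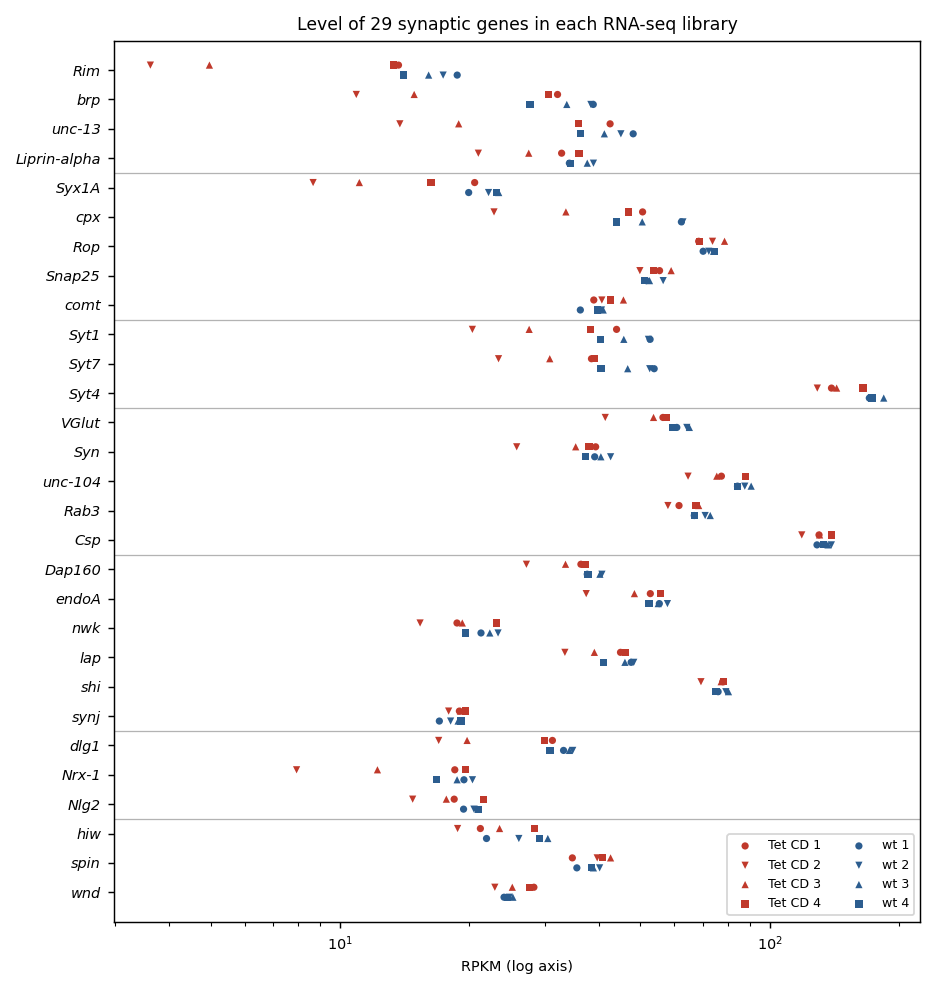
RPKM (log axis) of the 29 tested members in the 4 Tet CD libraries (red, upper row of each gene) and the 4 wt libraries (blue, lower row), with marker shapes for library numbers and grey lines between roles. Tet CD 2 and Tet CD 3 lie far to the left for the active zone scaffold genes, where Rim reads 3.62 and 4.97 RPKM, while Rop, Snap25 and comt keep their groups intermingled.

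The deficit was concentrated in a pair of libraries. The median log2 ratio of the 29 members to the wt mean was -0.10, -0.50, -0.20 and -0.01 in Tet CD 1 to 4, and -0.03, 0.07, 0.03 and -0.05 in wt 1 to 4. The matching median over all genes tested stayed between -0.01 and 0.01 in every library. As levels, the median member had 39.0, 23.4, 33.5 and 38.3 RPKM in Tet CD 1 to 4, against 39.2, 42.7, 41.0 and 38.5 RPKM in wt 1 to 4. Tet CD 4 and, more narrowly, Tet CD 1 were thus near wt, Tet CD 2 was far below it, and Tet CD 3 lay between. For 25 of the 29 members, Tet CD 2 held the lowest value of all 8 libraries. The same count was not made over all genes, so whether it is particular to the members was not tested. The longest genes also had their lowest median log2 ratio in Tet CD 2, at -0.32. Without Tet CD 2 and Tet CD 3 the median log2 fold change of the members was -0.08.

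The spread between libraries differed in the same way. The median coefficient of variation of the members was 15.5% over the Tet CD libraries and 5.29% over the wt libraries, and it was larger in Tet CD for 28 of 29 members. Over all genes tested the medians were 11.4% in Tet CD and 6.49% in wt, and the coefficient was larger in Tet CD for 7014 of 9357 genes.

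**Figure D2:**
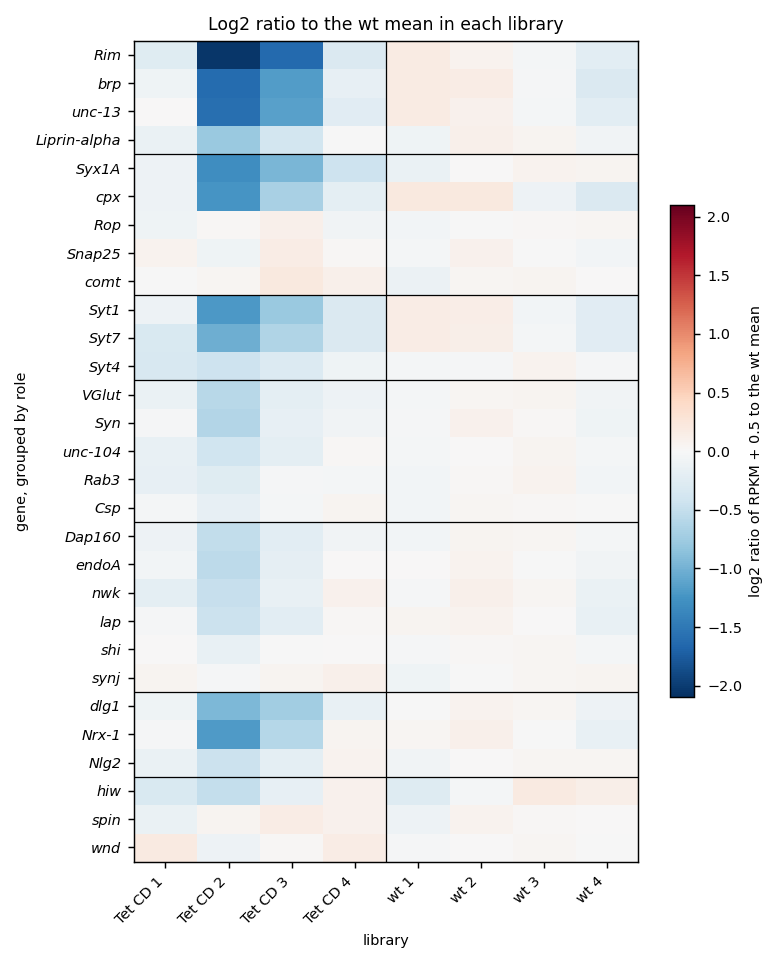
Log2 ratio of RPKM + 0.5 to the wt mean for each tested member (rows, grouped by role) in each library (columns, Tet CD left of wt), blue below and red above the wt mean. The blue cells of Tet CD 2 and Tet CD 3 deepen in the active zone scaffold rows, Syx1A, cpx, Syt1, Syt7, dlg1 and Nrx-1, and are pale in the rows of Rop, Snap25, comt, shi, synj, spin and wnd.

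The active zone scaffold and priming factors had the lowest median log2 fold change of any role over all 8 libraries, -0.75 for 4 genes, all 4 of them lower. Their median log2 ratio to wt was -0.12, -1.60, -1.16 and -0.20 in Tet CD 1 to 4. Without Tet CD 2 and Tet CD 3 the median fold change of the 4 genes was -0.12 on the log2 scale, and the synaptotagmins, at -0.21, then had the lower median.

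Rim (FBgn0053547, chr3R:17872748-17916578 in dm6, minus strand) encodes the active zone protein that binds Rab3 on vesicles and helps to gather calcium channels at release sites. It had 13.7, 3.62, 4.97 and 13.3 RPKM in Tet CD 1 to 4, against 18.8, 17.4, 16.1 and 14.1 RPKM in wt 1 to 4. The groups did not overlap, but Tet CD 1 and Tet CD 4 fell short of the lowest wt library by less than 1 RPKM, whereas Tet CD 2 and Tet CD 3 were well under it. The log2 fold change was -1.06 (SE 0.38, 95% interval -1.91 to -0.21), with an adjusted p of 0.106 by limma. The exact two-sided permutation p was 0.0286, the smallest that 4 against 4 libraries can give. Every gene whose groups do not overlap receives this value, so it restates the lack of overlap. Of all genes tested, 9.42% did not overlap with Tet CD lower and 9.35% with Tet CD higher. The log2 fold change of Rim was -0.28 without Tet CD 2 and Tet CD 3.

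brp (bruchpilot, FBgn0259246, chr2R:9503765-9541565, plus strand), the fly ELKS-related protein that forms the T-bars of the active zone, had 32.1, 10.9, 14.9 and 30.6 RPKM in Tet CD 1 to 4, against 38.9, 38.4, 33.7 and 27.7 RPKM in wt 1 to 4. The groups overlapped, since Tet CD 1 and Tet CD 4 were both above wt 4. The log2 fold change was -0.76 (SE 0.32) with an adjusted p of 0.153 by limma, and -0.13 without Tet CD 2 and Tet CD 3.

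unc-13 (FBgn0025726, chr4:867824-912331, minus strand), the priming factor that readies docked vesicles for fusion, repeated this arrangement. It had 42.5, 13.8, 18.9 and 35.9 RPKM in Tet CD 1 to 4, against 48.1, 45.1, 41.2 and 36.3 RPKM in wt 1 to 4, so that Tet CD 1 lay inside the wt range, Tet CD 4 just under it and the other two far below. The log2 fold change was -0.74 (SE 0.31, adjusted p = 0.155 by limma), and -0.12 without Tet CD 2 and Tet CD 3. Annotated opposite-strand transcripts and transposable elements cover 5775 bases of its exons, and the counting was not stated to use strand, so reads of both strands may be mixed in this value. Liprin-alpha, a scaffold protein that sets active zone size, differed least of the 4, at 29.3 ± 6.57 RPKM in Tet CD and 36.3 ± 2.34 RPKM in wt (SD, n = 4 each), a log2 fold change of -0.33 (adjusted p = 0.174 by limma), and -0.08 without Tet CD 2 and Tet CD 3.

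The SNAREs and fusion machinery were split, with a median log2 fold change of -0.01 over 5 genes, 3 lower and 2 higher. Syx1A (syntaxin, FBgn0013343, chr3R:24101600-24105763, minus strand), the SNARE of the plasma membrane, had 20.6, 8.66, 11.1 and 16.3 RPKM in Tet CD 1 to 4, against 19.9, 22.2, 23.4 and 23.2 RPKM in wt 1 to 4. Only Tet CD 1 lay inside the wt range. Its log2 fold change was -0.70 (SE 0.22, 95% interval -1.20 to -0.20, adjusted p = 0.0806 by limma), and -0.27 without Tet CD 2 and Tet CD 3. Its exons share 447 bases on the same strand with eIF4EHP, so its reads may have been counted in part.

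Complexin (cpx), which clamps and then promotes SNARE-driven fusion, averaged 38.5 ± 12.8 RPKM in Tet CD and 54.9 ± 9.26 RPKM in wt (SD, n = 4 each), a log2 fold change of -0.56 with an adjusted p of 0.156 by limma. The values were 50.6, 22.8, 33.6 and 47.0 RPKM in Tet CD 1 to 4, against 62.3, 62.8, 50.5 and 44.0 RPKM in wt 1 to 4, and the log2 fold change was -0.33 without Tet CD 2 and -0.15 without Tet CD 2 and Tet CD 3. The other 3 genes of this role had log2 fold changes between -0.01 and 0.09. Snap25, the other plasma membrane SNARE, had 55.5, 49.9, 59.0 and 53.7 RPKM in Tet CD 1 to 4, against 51.6, 56.5, 52.5 and 51.1 RPKM in wt 1 to 4. Rop, the Munc18 homologue that binds syntaxin, had 68.4, 73.6, 78.5 and 68.8 RPKM in Tet CD 1 to 4, against 70.03, 72.2, 74.0 and 74.4 RPKM in wt 1 to 4, a log2 fold change of -0.01 with a 95% interval of -0.13 to 0.12. comt (FBgn0000346, chrX:13259021-13262488, plus strand), the NSF ATPase that pulls used SNARE complexes apart, had 39.0, 40.7, 45.7 and 42.6 RPKM in Tet CD 1 to 4, against 36.3, 40.6, 41.0 and 39.8 RPKM in wt 1 to 4. This was the highest positive value among the members, 0.09 on the log2 scale (SE 0.06, adjusted p = 0.394 by limma), and the groups overlapped. In Tet CD 2, the library lowest for Syx1A and cpx, Rop and comt stood inside their wt ranges, while Snap25 was just under its lowest wt library.

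All 3 synaptotagmins were lower in Tet CD. Their median was -0.57 on the log2 scale, and 2 of them had groups that did not overlap, beside 9.42% of all genes without overlap and lower in Tet CD. Syt4 (FBgn0028400, chr3R:7266065-7270809, plus strand), which is known in fly muscle for retrograde signalling to the nerve terminal, had 139, 129, 143 and 165 RPKM in Tet CD 1 to 4, against 171, 172, 184 and 173 RPKM in wt 1 to 4. The log2 ratio to the wt mean was -0.33, -0.44, -0.29 and -0.08 in Tet CD 1 to 4, so that Tet CD 4 was closest to wt. The log2 fold change was -0.28 (SE 0.07, 95% interval -0.45 to -0.12), with an adjusted p of 0.0418 by limma, the lowest of any member. It was the 1 member under an adjusted p of 0.05 with a fold change over 1.2 by limma, beside 3.74% of all genes lower at both thresholds. Without Tet CD 2 and Tet CD 3 the log2 fold change of Syt4 was -0.21, with an adjusted p of 0.144 by limma. Without Tet CD 4, the Tet CD library closest to wt, it was -0.35 with an adjusted p of 0.00608 by limma, which passes the threshold. Leaving out each library in turn gave -0.35 to -0.23 for Syt4, and 70 to 203 lower genes among all tested.

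Syt7 (FBgn0039900, chr4:278685-306481, minus strand), a calcium sensor of slower kinetics, had 38.5, 23.4, 30.8 and 39.1 RPKM in Tet CD 1 to 4, against 53.9, 52.6, 46.8 and 40.5 RPKM in wt 1 to 4. The log2 fold change was -0.57 (SE 0.16, adjusted p = 0.0578 by limma), and the groups stood apart only narrowly, by the distance between Tet CD 4 and wt 4. Syt1, the fast calcium sensor of transmitter release, averaged 32.6 ± 10.6 RPKM in Tet CD and 47.8 ± 5.85 RPKM in wt (SD, n = 4 each), a log2 fold change of -0.60 with an adjusted p of 0.106 by limma. The values were -0.31 for Syt7 and -0.21 for Syt1 without Tet CD 2 and Tet CD 3. Syt7 and Syt4 each have exons of little more than 3 kb (3309 and 3103 bases), below the 4147 bases at which the longest genes as defined above begin.

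The vesicle proteins, transporters and transport motor differed less, with a median log2 fold change of -0.19 over 5 genes, all lower. VGlut, the vesicular glutamate transporter that marks fly motor neurons, had 56.5, 41.5, 53.7 and 57.6 RPKM in Tet CD 1 to 4, against 60.8, 64.2, 65.0 and 59.4 RPKM in wt 1 to 4. The groups did not overlap, and the log2 fold change was -0.26 (SE 0.10, adjusted p = 0.121 by limma), and -0.13 without Tet CD 2 and Tet CD 3. Csp, the vesicle chaperone and the most abundant member of this role, had 130, 119, 131 and 139 RPKM in Tet CD 1 to 4, against 129, 139, 137 and 134 RPKM in wt 1 to 4, a log2 fold change of -0.05 with a 95% interval of -0.18 to 0.07. Synapsin (Syn), which tethers reserve vesicles, was at 34.6 ± 6.12 RPKM in Tet CD and 39.9 ± 2.28 RPKM in wt. Rab3, the vesicle GTPase, was at 63.8 ± 4.93 RPKM in Tet CD and 69.3 ± 2.98 RPKM in wt. The kinesin unc-104, which carries vesicle precursors down the axon, was at 76.2 ± 9.50 RPKM in Tet CD and 86.6 ± 3.10 RPKM in wt (SD, n = 4 each throughout). Short exon overlaps with a neighbour on the opposite strand affect Syn (249 bases, Timp) and VGlut (39 bases), and one on the same strand affects unc-104 (168 bases).

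Endocytosis and recycling factors had a median log2 fold change of -0.18 over 6 genes, 5 lower and 1 higher. Dap160, the intersectin that links dynamin to other endocytic proteins, had 36.4, 27.2, 33.5 and 37.2 RPKM in Tet CD 1 to 4, against 37.6, 40.7, 40.3 and 37.8 RPKM in wt 1 to 4. Its groups did not overlap, but Tet CD 1 and Tet CD 4 lay within a few percent of the lower wt libraries, and the log2 fold change of -0.23 (SE 0.09) had an adjusted p of 0.152 by limma and was -0.09 without Tet CD 2 and Tet CD 3. shi, the dynamin that pinches off vesicles, had 77.8, 69.2, 77.1 and 78.2 RPKM in Tet CD 1 to 4, against 75.9, 79.1, 80.2 and 75.0 RPKM in wt 1 to 4. Leaving aside Tet CD 2, its Tet CD values sat inside the wt range. synj, the lipid phosphatase that helps vesicles shed their clathrin coats, had 19.0, 17.9, 19.1 and 19.6 RPKM in Tet CD 1 to 4, against 17.04, 18.1, 18.8 and 19.1 RPKM in wt 1 to 4, a log2 fold change of 0.05 (95% interval -0.09 to 0.18). The clathrin adaptor lap, endoA and nwk, an F-BAR protein that restrains synaptic growth, had log2 fold changes of -0.17, -0.20 and -0.19, each with an adjusted p over 0.27 by limma.

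Adhesion and postsynaptic scaffold genes had a median log2 fold change of -0.44 over 3 genes, all lower. dlg1, the PSD-95 family scaffold, had 31.2, 16.98, 19.8 and 29.9 RPKM in Tet CD 1 to 4, against 33.1, 34.8, 34.2 and 30.8 RPKM in wt 1 to 4, with Tet CD 1 alone inside the wt range and a log2 fold change of -0.48 (SE 0.18, adjusted p = 0.119 by limma), and -0.12 without Tet CD 2 and Tet CD 3. Nrx-1, the presynaptic neurexin, averaged 14.6 ± 5.49 RPKM in Tet CD and 18.8 ± 1.51 RPKM in wt (SD, n = 4 each), a log2 fold change of -0.44 with an adjusted p of 0.269 by limma. Without Tet CD 2 and Tet CD 3 the value for Nrx-1 turned to 0.02. Nlg2, a neuroligin, was at 18.1 ± 2.81 RPKM in Tet CD and 20.5 ± 0.749 RPKM in wt (SD, n = 4 each).

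The regulators of synapse growth showed no common direction, with a median log2 fold change of 0.04 over 3 genes. wnd (FBgn0036896, chr3L:19624406-19635783, minus strand), a kinase of the DLK family that drives synaptic overgrowth and axon regeneration, had 28.3, 22.9, 25.2 and 27.6 RPKM in Tet CD 1 to 4, against 24.1, 24.8, 25.3 and 24.5 RPKM in wt 1 to 4, a log2 fold change of 0.07 (95% interval -0.09 to 0.23). hiw, the ubiquitin ligase that lowers the amount of Wnd protein, was at 22.99 ± 4.11 RPKM in Tet CD and 26.9 ± 3.80 RPKM in wt (SD, n = 4 each), a log2 fold change of -0.23 with an adjusted p of 0.304 by limma. spin, a late endosomal and lysosomal transporter whose mutants have overgrown junctions, had 34.8, 39.7, 42.6 and 40.9 RPKM in Tet CD 1 to 4, against 35.6, 40.2, 38.9 and 38.5 RPKM in wt 1 to 4. Its log2 fold change was 0.04, and it turned to -0.02 without Tet CD 2 and Tet CD 3.

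**Figure D3:**
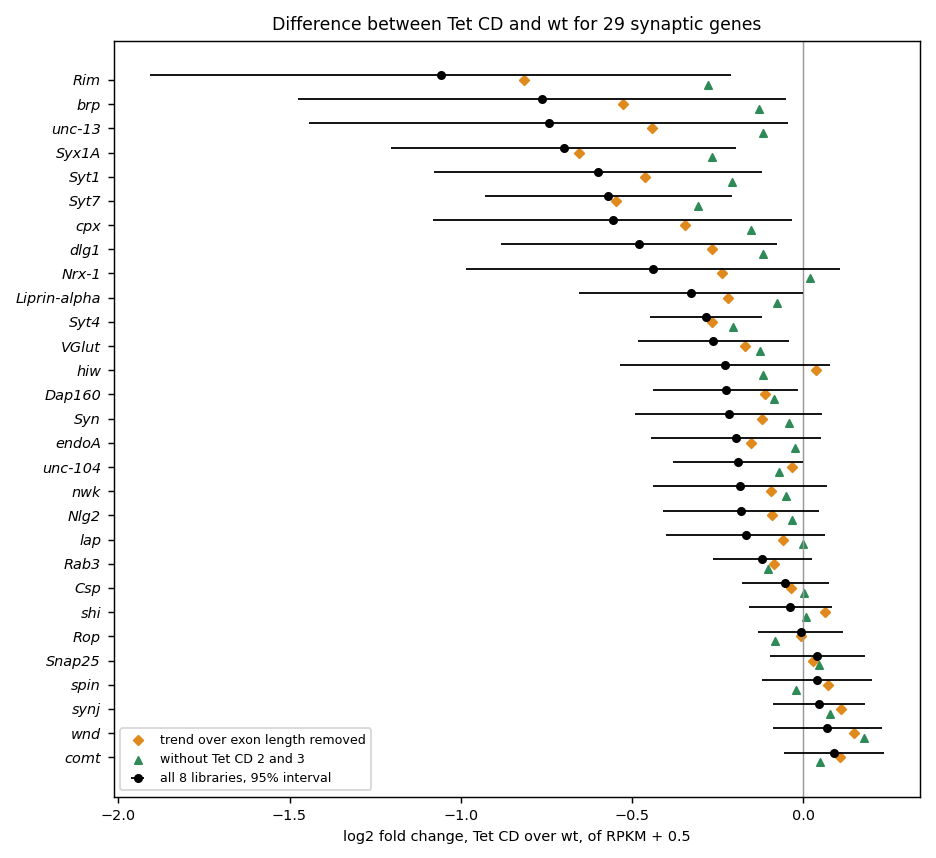
Log2 fold change of Tet CD over wt (x axis, of RPKM + 0.5) for each tested member, with its 95% interval from limma over all 8 libraries (black), the value once the exon length trend was taken out (orange) and the value without Tet CD 2 and Tet CD 3 (green). Rim is at -1.06, -0.81 and -0.28 in these fits, and brp at -0.76, -0.53 and -0.13.

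Groups that did not overlap were found for 5 of 29 members (17.2%), Rim, Syt4, Syt7, VGlut and Dap160, all lower in Tet CD, and for 0 of 29 higher. Over all genes tested, 9.42% did not overlap with Tet CD lower and 9.35% with Tet CD higher. Among all genes of at least 4147 exon bases the share without overlap and lower was 13.4%, against 14.3% (3 of 21) for the members of that length.

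Most of these synaptic genes are long. Of the 29 tested members, 21 had at least 4147 bases of exon, and 19 of these 21 (90.5%) were lower in Tet CD, against 69.7% of the 1832 tested genes of that length. At an unadjusted p under 0.05 by limma, 11 of the 21 (52.4%) were lower, against 22.7% of those genes. The 8 shorter members, with exons of 2282 to 3757 bases, were divided into 5 lower and 3 higher, with a median log2 fold change of -0.03. Across the 29 members, the log2 ratio to wt fell with log2 exon length in Tet CD 2 (Pearson r = -0.69) and Tet CD 3 (r = -0.67), and much less in Tet CD 1 (r = -0.11) and Tet CD 4 (r = -0.26). In wt 1 to 4, whose own mean is the reference, r was 0.38, 0.28, -0.14 and -0.45. A fall with length was thus not confined to Tet CD libraries. These are correlations across genes of 1 library each, which share their library preparation and are not independent replicates. Over all 9161 tested genes with an annotated exon length r was -0.18 in Tet CD 2 and -0.14 in Tet CD 3.

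Length did not order the members fully. hiw, with 16734 bases of exon, had a log2 fold change of -0.23, while Syx1A, with 4164 bases, had -0.70 and Syt7, with 3309 bases, had -0.57. Once the trend of all genes over exon length was taken out library by library, the members had a median of -0.11 on the log2 scale, Rim was at -0.81, Syx1A at -0.66, Syt7 at -0.55 and hiw at 0.04, and no member was called. In Tet CD 2, 8 of the 29 members were more than 1 log2 unit below the wt mean, against 4.88% of all genes, and in Tet CD 3 this held for 3 members, against 2.22% of all genes.

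**Figure D4:**
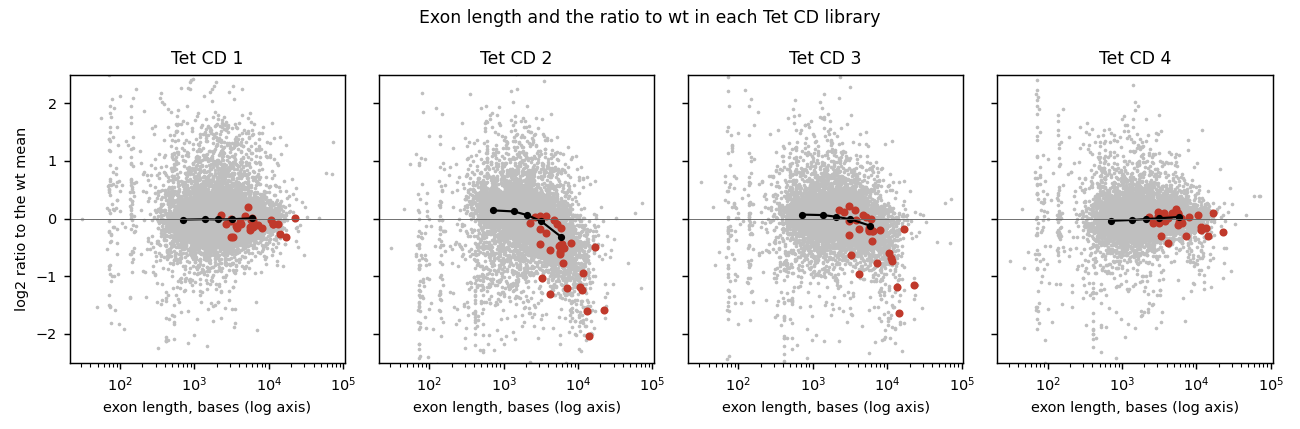
Log2 ratio to the wt mean against exon length (log axis, bases) in each Tet CD library, for all genes tested (grey), the 29 members (red) and the medians of 5 equal bins of all genes by exon length (black line). The members slope downwards in Tet CD 2 (r = -0.69) and Tet CD 3 (r = -0.67), further than the black line, and stay near 0 in Tet CD 1 and Tet CD 4; grey points beyond ±2.5 are outside the axis.

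The number of calls turned on how the libraries were weighted. With limma's array weights, which give each library a weight from its own spread, 11 members were lower at the same threshold and 0 were higher, beside 10.9% of all genes lower and 8.83% higher. The 11 were brp, Rim, unc-13, Liprin-alpha, Syx1A, cpx, Syt1, Syt4, Syt7, Nrx-1 and dlg1. In that fit Tet CD 3 received a weight of 6.32 and the other Tet CD libraries weights of 0.318 to 0.399, so the Tet CD mean rested mostly on 1 of the libraries low for long genes.

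Other synaptic genes, which were not members, were also mostly lower in Tet CD. Of 63 tested, 0 were called by limma. By direction 50 (79.4%) were lower and 13 higher, against 51.4% of all genes lower. At an unadjusted p under 0.05 by limma, 21 (33.3%) were lower and 2 higher, beside 13.9% of all genes lower and 14.4% higher. Their median log2 fold change was -0.10. The 17 other active zone and release genes had a median of -0.38. Frq1, a frequenin calcium sensor, had the largest fall of that list, with 11.7, 3.93, 3.496 and 9.14 RPKM in Tet CD 1 to 4, against 22.6, 20.5, 19.5 and 16.4 RPKM in wt 1 to 4, a log2 fold change of -1.58 (SE 0.33, adjusted p = 0.0226 by limma). It was at -0.89 without Tet CD 2 and Tet CD 3. Rab27, a vesicle GTPase, had the highest value of the list at 0.15.

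The other vesicle proteins and transporters had a median of -0.04, between VGAT, the vesicular GABA transporter, at -0.28 and Esyt2 at 0.20. The other endocytosis genes had a median of -0.02, between the F-BAR protein Cip4 at -0.23 (adjusted p = 0.0364 by limma) and the clathrin-uncoating chaperone Hsc70-4 at 0.20. The other adhesion, cytoskeleton and growth genes had a median of -0.16, with Ten-a, a teneurin, lowest at -0.59. The highest of that list was gbb, the BMP ligand that muscle sends to motor neurons, with 44.4, 48.5, 42.4 and 39.7 RPKM in Tet CD 1 to 4, against 31.8, 32.6, 31.0 and 35.8 RPKM in wt 1 to 4. Its groups did not overlap, and its log2 fold change of 0.41 (SE 0.07) had an adjusted p of 0.0108 by limma, just outside the threshold.

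Both neuronal gene families set beside the members had medians further below 0. Over all genes tested, 51.4% were lower. The 17 voltage-gated channel genes had a median log2 fold change of -0.47, all 17 lower, and 1 of them was called, Elk, at 4.47 ± 0.565 RPKM in Tet CD and 8.22 ± 0.720 RPKM in wt (SD, n = 4 each), with a log2 fold change of -0.82 and an adjusted p of 0.00178 by limma. Elk was at -0.72 without Tet CD 2 and Tet CD 3. The 9 tested nicotinic receptor subunits had a median of -0.85, all lower, and 0 were called by limma, with 6 lower at an unadjusted p under 0.05, a threshold that 13.9% of all genes passed in that direction. Without Tet CD 2 and Tet CD 3 the median was -0.07 for the channels, -0.30 for the receptor subunits, -0.08 for the synaptic genes described here and -0.32 for the neuron markers. The median exon length was 10153 bases for the channels, 6050 for the receptor subunits and 5716 for the synaptic genes described here. Once the trend over exon length was taken out, their medians were -0.28, -0.65 and -0.11. The lists are not separate, since cac, stj and Ca-beta count both as channels and as other active zone and release genes. These differences between lists were not tested.

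**Figure D5:**
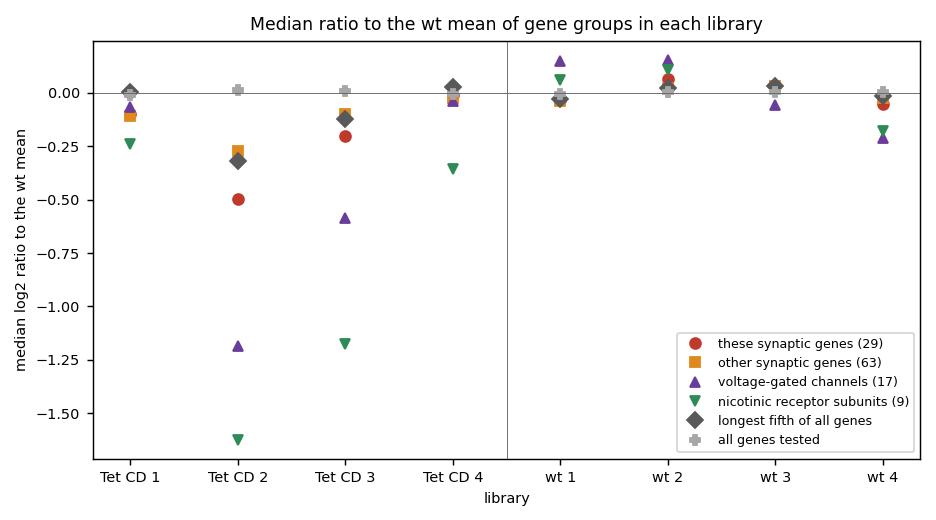
Median log2 ratio to the wt mean (y axis) of 6 gene groups in each library (x axis, Tet CD left of wt). The synaptic genes described here (red circles) are at -0.10, -0.50, -0.20 and -0.01 in Tet CD 1 to 4, between the longest genes (at least 4147 exon bases) and the channel genes in Tet CD 2 and Tet CD 3.

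The promoters were read from the genome to see what sequence the members share, since the GAGA factor, which binds GAGAG repeats, was among the proteins profiled in the study. In the 200 bases just upstream of the annotated 5′ end of each gene, on either strand and with overlapping matches counted, GAGAG was present for 10 of 29 tested members (brp, Rim, Syt1, Syn, VGlut, synj, nwk, Nrx-1, wnd and hiw), against 23.5% of 9161 genes. TATAAA was present for 7 of 29, against 34.3%, the E-box CACGTG for 1 (Snap25), against 2.19%, and TATCGATA, the core of the DREF element, for 2 (Rop and spin), against 9.85%. GAGAG was found both among the lowest members and among members near or above 0, and its presence is a description only. Windows of the members with the lowest and the highest fold changes are shown, leaving out windows that overlap an annotated transposable element and the chromosome arm of brp, each 5′ to 3′ on the strand of the gene (dm6 coordinates, sequence from the RefSeq Release 6 genome). Capitals mark GAGAG or TATAAA on either strand. Rim (chr3R:17916579-17916778), the member lowest in Tet CD, held 12 overlapping GAGAG matches, Syx1A (chr3R:24105764-24105963) held none of the motifs searched, comt (chrX:13258821-13259020) held TATAAA on both strands, and wnd (chr3L:19635784-19635983) held 2 GAGAG matches.
Rim: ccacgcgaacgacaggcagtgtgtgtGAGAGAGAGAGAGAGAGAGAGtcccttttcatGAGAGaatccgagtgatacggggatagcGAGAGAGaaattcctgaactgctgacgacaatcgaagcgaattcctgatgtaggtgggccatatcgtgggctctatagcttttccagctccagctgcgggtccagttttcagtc
Syx1A: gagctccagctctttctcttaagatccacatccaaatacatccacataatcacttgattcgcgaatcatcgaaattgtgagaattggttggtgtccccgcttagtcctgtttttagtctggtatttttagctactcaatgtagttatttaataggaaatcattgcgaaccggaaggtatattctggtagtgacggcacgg
comt: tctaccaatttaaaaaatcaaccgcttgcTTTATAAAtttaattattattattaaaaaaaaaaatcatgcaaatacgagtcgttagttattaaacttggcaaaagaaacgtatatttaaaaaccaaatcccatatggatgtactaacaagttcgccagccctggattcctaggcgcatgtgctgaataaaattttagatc
wnd: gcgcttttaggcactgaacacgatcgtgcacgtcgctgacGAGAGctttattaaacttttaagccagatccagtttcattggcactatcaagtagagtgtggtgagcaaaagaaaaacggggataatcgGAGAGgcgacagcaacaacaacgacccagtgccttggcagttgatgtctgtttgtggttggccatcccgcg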

How the data were processed

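RNA-seq of the larval central nervous system was measured in 4 Tet CD and 4 wt libraries. The authors trimmed reads with Cutadapt, aligned them to dm6 with HISAT2, counted reads per gene with HTSeq and deposited RPKM values, per the methods computed with Cufflinks; whether counting used strand is not given in the sources used here. In the deposited RPKM file, 4 further columns of per-sample values were not used. Library sizes were found from values up to 0.3 RPKM, of which 97.6% to 98.1% were whole reads within 0.01 read. Because the values are RPKM, log2(RPKM + 0.5) was fitted with limma 3.58.1 (R 4.3.3, eBayes with trend) for the 9357 genes that averaged 0.5 RPKM or more, and genes were called at a Benjamini-Hochberg adjusted p under 0.01 over all of them and a fold change over 1.2. A fold change on this scale understates that of low genes. Single values were tested by exact permutation over 70 arrangements, two-sided. Exon lengths, strands and overlaps came from the Ensembl annotation of the same assembly. Promoter windows on chromosome arm 2R are not shown. Scripts were tested on simulated data.

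The members and all gene lists were chosen with earlier results of these data known. By a rule on named genes, all members were named, and the value in every library was given for called members, the 4 largest rises and 4 largest falls, members whose groups did not overlap and the most abundant member of each role; of the other synaptic genes, those called and the largest rise and fall of each list were named. Elk was named from the channel list because it was called, after its value was seen. Alternatives covered the pseudocount, the filter, the scaling, a replicate block, array weights, trends over exon length and GC content, and libraries left out. Columns of the third genotype and the chromatin libraries were not analysed here.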

Additional observations from a re-analysis of the deposited data

Results flagged for a closer look

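In 2 of 64 groups of 4 libraries, 1 library lay far from the other 3 (its gap to them exceeded Dixon's critical value), where chance gives 3.2. For shi, Tet CD 2 was at 69.2 RPKM while the other Tet CD libraries were at 77.1 to 78.2 RPKM. For Nlg1, Tet CD 4 was at 0.270 RPKM while the other Tet CD libraries were at 0.155 to 0.167 RPKM, a level of few reads.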

How the results depend on the processing

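Of 29 members, 23 kept the direction of their log2 fold change under all 20 alternatives, and 0 were called higher by limma under any of them. With array weights 11 members were called lower, and 1024 lower and 826 higher genes in all, with Rop at 0.0873. At an adjusted p under 0.05 with the fold change still over 1.2 by limma, 1 member, 350 lower and 442 higher genes were called. Leaving out each library in turn gave 0 to 1 members lower (Syt4, without Tet CD 4), 70 to 203 genes lower and 51 to 203 higher, with Rop at -0.0484 to 0.0178 and shi at -0.0549 to 0.0032. Without Tet CD 2 and Tet CD 3, 42 genes were higher, and Csp (0.0030), shi (0.0085), Nrx-1 (0.0195) and spin (-0.0217) changed sign; without wt 4 as well, an alternative added after seeing the data, 49 genes were lower and 30 higher, with spin at -0.0187. With the trend over exon length removed, 176 genes were higher, shi was at 0.0641 and hiw at 0.0375, and the same 2 values came from the replicate block with that trend removed. With the trend over GC content removed, shi was at 0.0045. The replicate block gave 0 members called, 60 genes lower and 51 higher; same-numbered libraries deviated together with correlations of 0.24, -0.19, 0.04 and -0.10, so the numbers do not pair the samples. The cause of these shifts was not tested. The size of 4 libraries a group, and the wide spread in Tet CD, limit the precision of each value.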
